A study of Homo sapiens with 12 samples.

Results

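Antioxidant and iron-handling transcripts were followed in the melanoma line A375 while the MAPK pathway was inhibited and after the inhibitors were removed. The set consisted of 10 genes chosen by name: HMOX1, NQO1, TXNRD1, SRXN1, GCLC, GCLM, FTH1, FTL, GPX4 and ACSL4. Each was found as 1 row of the 44659 gene rows in the count table, and all 10 were among the 15916 genes with enough counts to be tested. A further 107 genes of the same pathways, grouped in 7 lists, are given as context.

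A375 is an established human melanoma line with mutant BRAF, and every group consisted of these cells. The solvent DMSO was given for 72 h to control cells (CC). MAPKi stands for vemurafenib, which inhibits BRAF, and cobimetinib, which inhibits MEK, both at 500 nM. Treated cells (TC) were kept in MAPKi for 72 h. Persister cells (PC) received MAPKi for 72 h and then grew for 2 days without drug, and recovered cells (RC) received MAPKi for 72 h and then grew for 9 days without drug. CC and TC were harvested at day 0, so PC and RC had no DMSO control of their own day, and effects of drug removal and of time in culture cannot be told apart. There were 3 libraries of ribosome-depleted RNA in each group, given here as cytoplasmic, while the study's RNA-seq methods name total RNA. The study's methods name 3 experimental batches (A to C) of drug-treated cells, harvested at the times of TC, PC and RC. Batch may thus coincide with group among these, and the 2 cannot be told apart. Nothing beyond the replicate labels says how separate the cultures within a group were. The p-values therefore measure the spread between the libraries, which may be partly technical.

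NRF2, encoded by NFE2L2, is a transcription factor that KEAP1 marks for degradation in unstressed cells. When electrophiles or oxidants modify KEAP1, NRF2 pairs with a small MAF protein and binds antioxidant response elements near genes for glutathione synthesis, thioredoxin reduction and quinone detoxification, while BACH1 occupies many of the same elements as a repressor. Ferroptosis is a form of cell death in which iron drives the peroxidation of polyunsaturated phospholipids. GPX4 uses glutathione to reduce those peroxides, ferritin stores iron away from them, and ACSL4 supplies the fatty acids that are prone to peroxidation.

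Total counts ran from 37773389 to 55567097 per library, and a count of 3 corresponded to between 0.054 and 0.0794 CPM, a floor for counting error only. CPM is the count of a gene scaled to the TMM-normalised total of its library, in units of 1e6 counts. SPRY4, a feedback inhibitor of the pathway, fell from between 270.3 and 720 CPM in CC to between 1.46 and 1.79 CPM in TC. It was still at 0.674 to 0.925 CPM in PC, 2 days after removal, and at 249 to 285 CPM in RC. All 3 genes checked for pathway output, SPRY4, DUSP6 and ETV4, were lower than CC in TC and in PC, and 1 was lower in RC (edgeR quasi-likelihood). Mitochondrial transcripts took 1.31% to 2.15% of counts in CC, 2.73% to 3.26% in TC, 2.04% to 2.59% in PC and 1.26% to 1.32% in RC, and whether this share had any part in the results was not tested. Of 8 melanocyte markers, 7 were tested, and against CC 4 of them were higher and 1 lower in TC, 5 higher and 1 lower in PC, and 0 higher and 4 lower in RC (edgeR quasi-likelihood). PMEL rose from between 63.3 and 75.3 CPM in CC to 817, 609.95 and 419.65 CPM in TC replicates 1, 2 and 3, in the same order of libraries as HMOX1. SOX10 rose from a mean of 659 to 1046 CPM, TYR from 2.09 to 4.87 CPM and MLANA from 0.545 to 1.51 CPM, and S100B fell from 264 to 140.4 CPM. MITF and S100A1 were not called in TC, MIA was at 0 to 0.21 CPM in every library, and the part of these changes in the results was not tested. Of 7 markers of other cell types, 6 were at or below 0.69 CPM in every library. The exception was CD68, a lysosomal membrane protein used as a macrophage marker, with 127 to 173 CPM in CC and 719 to 1065 CPM in TC. PTPRC, which defines leukocytes, was at 0 to 0.07 CPM in TC.

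The start sites of GCLM and TXNRD1 are shown because, of the 8 genes with an entry in the RefSeq promoter table (GRCh38.p14), only these held the core of the antioxidant response element, TGACNNNGC, on either strand within 250 bases before and 50 bases after an annotated start. Of the 11587 tested genes with a window, 19.4% held it, and of all 35116 windows 13.3% did. The sequences run 5′ to 3′ on the strand of the gene and end before the start site, with the matched letters in capitals. GCLM, the modifier subunit of the first enzyme of glutathione synthesis, is read from chr1:93909431-93909494 on the minus strand, with the match beginning 34 bases before the start.
GCLM: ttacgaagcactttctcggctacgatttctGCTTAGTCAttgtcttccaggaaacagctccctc
TXNRD1, the cytosolic thioredoxin reductase, has 2 starts in the table on the plus strand. The first is read from chr12:104215650-104215718 and the second from chr12:104286900-104286968, with matches that begin 99 and 102 bases before the start.
TXNRD1, first start: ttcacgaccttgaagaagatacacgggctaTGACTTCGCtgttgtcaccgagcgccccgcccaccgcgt
TXNRD1, second start: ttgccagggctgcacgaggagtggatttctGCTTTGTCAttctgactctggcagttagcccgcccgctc
The GCLM match and the one at the second TXNRD1 start lie on the opposite strand, where they read TGACTAAGC and TGACAAAGC. A further match at the first TXNRD1 start begins 8 bases before it and crosses it. NQO1, SRXN1, GCLC, FTL, GPX4 and ACSL4 held no match, which says only that these letters are not in these windows. HMOX1 and FTH1 had no entry.

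Levels of different genes were compared only per length, as CPM per kilobase of the GENCODE v44 canonical transcript, an approximation because the reads were counted on another annotation. In CC, FTL was the most abundant at 1720 ± 297 (SD, n = 3) and GCLM the least at 4.54 ± 0.21. FTH1 (267 to 301), NQO1 (223 to 309) and GPX4 (216 to 279) followed FTL, and the libraries of these 3 genes overlapped. TXNRD1 (83.2 to 89.3) and SRXN1 (37.0 to 42.1) came next without overlap. GCLC (20.4 to 21.3) and ACSL4 (19.0 to 22.4) overlapped, and HMOX1 (8.27 to 8.59) lay between them and GCLM. In TC, HMOX1 reached 65.4 ± 23.3 on this scale, with libraries from 41.7 to 88.4 that overlapped those of SRXN1 (41.5 to 45.2) and stayed below those of TXNRD1 (90.7 to 95.5). In PC, HMOX1 (19.0 to 27.2) overlapped GCLC (21.5 to 22.3), and in RC it was again below ACSL4 and above GCLM, at 7.79 to 8.90. The widest range of group means, as log2 CPM, was that of HMOX1 (2.86), followed by ACSL4 (1.32), FTH1 (1.13), FTL (1.10), NQO1 (1.02), GCLM (0.91), GPX4 (0.70), GCLC (0.68), TXNRD1 (0.57) and SRXN1 (0.25).

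**Figure D1:**
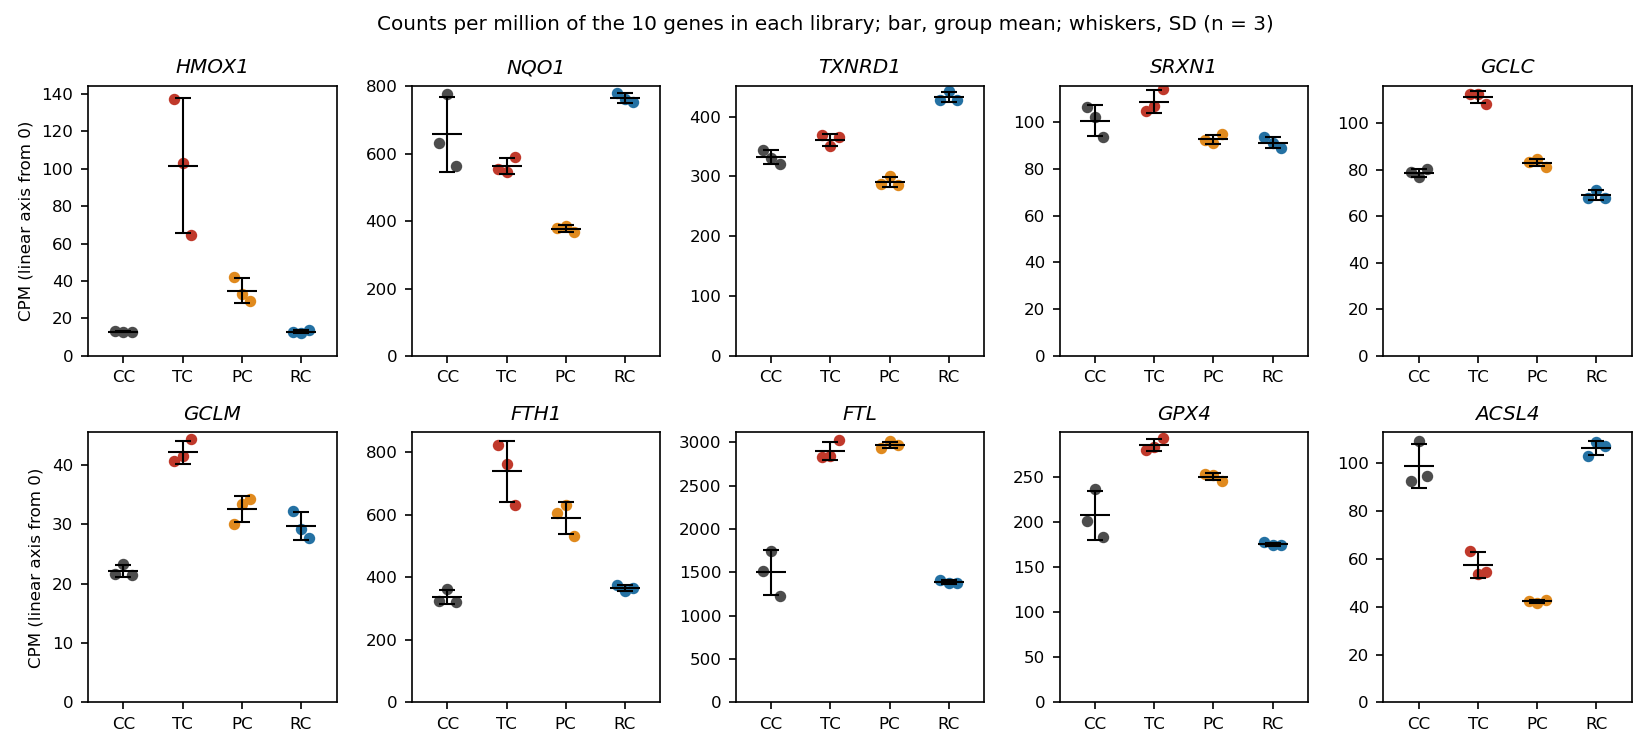
CPM (vertical axes, linear from 0) of each of the 10 genes in the 3 libraries of CC, TC, PC and RC (points), with the group mean (bar) and SD (whiskers, n = 3). HMOX1 rises from about 13 CPM in CC to between 64.9 and 137 CPM in TC and is back at 12.1 to 13.8 CPM in RC, FTH1 and FTL are high in both TC and PC, NQO1 and ACSL4 are lowest in PC, and SRXN1 moves least.

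TC and CC were compared to find which of these transcripts changed during 72 h of MAPKi. At an adjusted p under 0.05 in edgeR, 6 of the 10 genes rose (HMOX1, GCLC, GCLM, FTH1, FTL and GPX4) and 1, ACSL4, fell. Over all tested genes 33.2% were higher and 34.7% were lower. Beyond 1.5-fold, 4 genes rose (HMOX1, GCLM, FTH1 and FTL) and ACSL4 fell, against 16.1% and 19.3% of all tested genes. In DESeq2 with the study's threshold, ACSL4 was not called in TC (adjusted p = 0.0788). The median log2 fold change of the 10 genes was 0.48, beside -0.02 over all tested genes. Without CC replicate 3, NQO1 joined ACSL4 and 2 genes were lower. The 3 genes that were not called, NQO1, TXNRD1 and SRXN1, are used as readouts of NRF2, as are HMOX1, GCLC and GCLM, which rose.

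In PC against CC, 5 genes were higher (HMOX1, GCLM, FTH1, FTL and GPX4) and 3 were lower (NQO1, TXNRD1 and ACSL4), while 33.2% and 35.9% of all tested genes were called in those directions. Beyond 1.5-fold, HMOX1, FTH1 and FTL were higher and NQO1 and ACSL4 lower, where the shares over all tested genes were 17.2% and 19.9%. In DESeq2 with the study's threshold, NQO1 was not called in PC (adjusted p = 0.162). The median log2 fold change of the 10 genes was 0.17, beside -0.04 over all tested genes. In RC against CC, TXNRD1 and GCLM were higher and GCLC and GPX4 lower, against 18.2% and 19.1% of all tested genes. None of the 10 was called beyond 1.5-fold in RC by glmTreat, where 1.35% of all tested genes were called higher and 2.52% lower, with 0 at an unadjusted p under 0.05 and 0 in DESeq2 with the study's threshold, while 4 passed the edgeR test against no change. Without CC replicate 3 there were 4 lower genes, without CC replicate 2 or RC replicate 2 there was 1, and without RC replicate 1 or 3 there were 0. The median in RC was 0.05, beside 0.00 over all tested genes. The comparisons of TC, PC and RC with CC share the CC libraries.

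**Figure D2:**
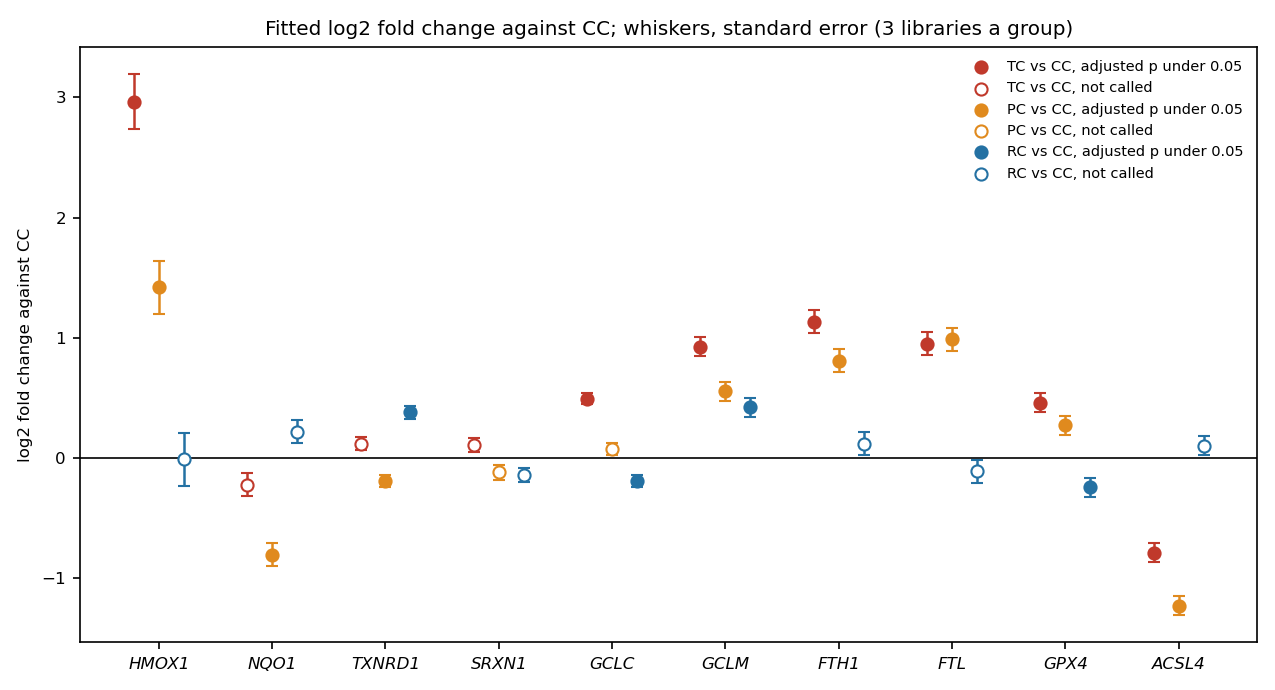
Fitted log2 fold change of each of the 10 genes against CC (vertical axis) in TC, PC and RC, with standard errors as whiskers, filled where the edgeR adjusted p was under 0.05 and open where it was not. HMOX1 lies highest in TC (2.96) and PC (1.42), ACSL4 lies lowest in both (-0.79 and -1.23), and all RC values lie between -0.24 and 0.42.

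HMOX1 encodes the inducible haem oxygenase, which breaks haem down to biliverdin, carbon monoxide and free iron. The gene lies on the plus strand at chr22:35380361-35394214. Its level was 13.3, 12.9 and 12.8 CPM in CC replicates 1 to 3, and 137, 103 and 64.9 CPM in TC replicates 1 to 3. PC replicates 1 to 3 held 42.3, 32.8 and 29.6 CPM, and RC replicates 1 to 3 held 12.9, 12.1 and 13.8 CPM. The groups CC, PC and TC did not overlap, and the RC libraries lay around the CC libraries. The rise in TC was 7.80-fold (log2 fold change 2.96 ± 0.23 SE, edgeR adjusted p = 2.29e-07) and in PC 2.68-fold (1.42 ± 0.22, edgeR adjusted p = 9.53e-05). In RC the log2 fold change was -0.01 ± 0.22 (edgeR adjusted p = 0.982). The spread between libraries was itself larger in TC, with a coefficient of variation of 35.6%, than in PC (19.0%), RC (6.65%) or CC (2.17%). Over all alternatives, which included leaving out each library, the TC value stayed between 2.69 and 3.21.

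NQO1 is a quinone reductase and a common marker of NRF2 activity, encoded on the minus strand at chr16:69706996-69726668. CC replicates 1 to 3 held 632, 779 and 563 CPM and TC replicates 1 to 3 held 555, 547 and 592 CPM. PC held 379, 387 and 366 CPM and RC 781, 762 and 755 CPM. The PC libraries lay below those of all other groups, TC overlapped CC, and RC overlapped CC only through CC replicate 2. NQO1 was 1.74-fold lower in PC than in CC (log2 fold change -0.80 ± 0.10, edgeR adjusted p = 1.03e-05). In TC the log2 fold change was -0.22 ± 0.10 and was not called (edgeR adjusted p = 0.0567), but it was called at -0.23 with library totals (edgeR adjusted p = 0.0401) and at -0.32 without CC replicate 3 (edgeR adjusted p = 0.00454). In RC it was 0.22 ± 0.10 (edgeR adjusted p = 0.0894), and without CC replicate 2 it was 0.36 (edgeR adjusted p = 0.00114).

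TXNRD1 reduces thioredoxin with NADPH and lies on the plus strand at chr12:104215779-104350307. CC replicates 1 to 3 held 345, 332 and 321 CPM and TC replicates 1 to 3 held 368, 350.0 and 366 CPM. PC replicates held 288, 300.4 and 285 CPM and RC replicates 427, 443 and 428 CPM. All 4 groups were separate, in the order PC, CC, TC and RC. TXNRD1 was 1.14-fold lower in PC (log2 fold change -0.19 ± 0.05, edgeR adjusted p = 0.00581, or 0.0572 with only these groups in the fit) and 1.30-fold higher in RC (0.38 ± 0.05, edgeR adjusted p = 0.000213). The TC difference of 0.12 ± 0.05 was not called (edgeR adjusted p = 0.0571). It was called at 0.13 with DESeq2 size factors in edgeR (adjusted p = 0.0387) and in the DESeq2 Wald test (adjusted p = 0.0102), and at 0.14 without CC replicate 1 (edgeR adjusted p = 0.0412).

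SRXN1, sulfiredoxin, reactivates peroxiredoxins that have been overoxidised, and lies on the minus strand at chr20:646615-653200. It ran from 93.5 to 106 CPM in CC, 105 to 114 in TC, 90.9 to 94.8 in PC and 89.0 to 93.7 in RC. The CC libraries overlapped those of each other group. Its log2 fold changes against CC were 0.11 ± 0.06 in TC, -0.12 ± 0.06 in PC and -0.14 ± 0.06 in RC, with edgeR adjusted p-values of 0.124, 0.102 and 0.0869. Without CC replicate 3, the PC value was -0.16 (edgeR adjusted p = 0.0161) and the RC value -0.19 (edgeR adjusted p = 0.0137). SRXN1 shares 2292 of its 2528 exonic bases in GENCODE v44 with another protein-coding gene model on the same strand. No gene was counted under the name of that model, and the reads were counted on another annotation. Whether the overlap made the level of SRXN1 less certain was not tested.

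Glutathione synthesis begins with glutamate-cysteine ligase, whose catalytic subunit is GCLC and whose modifier subunit is GCLM. GCLM, on the minus strand at chr1:93885199-93909456, was at 21.7, 23.3 and 21.5 CPM in CC and at 40.7, 41.4 and 44.3 CPM in TC. It was at 30.1, 33.5 and 34.2 CPM in PC and at 32.2, 29.2 and 27.7 CPM in RC. Every library of TC, PC and RC lay above every CC library, and PC and RC overlapped each other. GCLM rose 1.90-fold in TC (log2 fold change 0.93 ± 0.08, edgeR adjusted p = 5.63e-07) and was 1.47-fold higher in PC (0.56 ± 0.08, edgeR adjusted p = 4.61e-05) and 1.34-fold higher in RC (0.42 ± 0.08, edgeR adjusted p = 0.00153). It was the only one of the 10 genes called higher than CC in all 3 groups.

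GCLC, on the minus strand at chr6:53497341-53616970, was at 78.9, 77.1 and 80.5 CPM in CC and at 113, 113 and 108 CPM in TC. In PC it was at 83.3, 84.4 and 81.4 CPM and in RC at 67.9, 71.4 and 68.0 CPM. The 4 groups did not overlap, in the order RC, CC, PC and TC. GCLC rose 1.41-fold in TC (log2 fold change 0.50 ± 0.05, edgeR adjusted p = 2.27e-06). The PC value of 0.08 ± 0.05 was not called (edgeR adjusted p = 0.192). In RC, GCLC was 1.14-fold lower (-0.19 ± 0.05, edgeR adjusted p = 0.0107), a call that was lost without RC replicate 1 (-0.17, edgeR adjusted p = 0.0524) without RC replicate 3 (-0.17, edgeR adjusted p = 0.0537), and with only these groups in the fit (-0.19, edgeR adjusted p = 0.0862). Thus the catalytic and modifier subunits were called in opposite directions in RC.

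Ferritin is a shell of heavy chains (FTH1), which oxidise iron, and light chains (FTL), which promote its storage. FTH1, on the minus strand at chr11:61959718-61967634, was at 326, 362 and 322 CPM in CC and at 822, 764 and 630.3 CPM in TC. It was at 605, 632 and 532 CPM in PC and at 374, 356 and 367 CPM in RC. TC and PC lay above CC and overlapped each other by 1 library, PC replicate 2, and RC overlapped CC through CC replicate 2. FTH1 rose 2.19-fold in TC (log2 fold change 1.13 ± 0.10, edgeR adjusted p = 5.92e-07) and was 1.75-fold higher in PC (0.81 ± 0.10, edgeR adjusted p = 1.07e-05). In RC the log2 fold change was 0.12 ± 0.10 (edgeR adjusted p = 0.357). FTH1 shares 1267 of its 2004 exonic bases in GENCODE v44 with BEST1 on the opposite strand. The strand setting of the counting was not given in the sources used here, so reads of this pair cannot be told apart with certainty, and BEST1 itself held 13179 counts over the 12 libraries against 269602 for FTH1.

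FTL, on the plus strand at chr19:48965309-48966879, was at 1517, 1748 and 1231 CPM in CC and at 2825, 2844 and 3022 CPM in TC. The PC libraries were at 2938, 3009.5 and 2964 CPM and the RC libraries at 1414, 1373 and 1379 CPM. TC and PC overlapped each other and lay above CC, while the RC libraries lay inside the CC range. FTL rose 1.93-fold in TC (log2 fold change 0.95 ± 0.10, edgeR adjusted p = 2.74e-06) and was 1.98-fold higher in PC (0.99 ± 0.10, edgeR adjusted p = 1.85e-06). The RC value was -0.11 ± 0.10 (edgeR adjusted p = 0.4), and without CC replicate 3 it was -0.23 (edgeR adjusted p = 0.017). Together the ferritin chains took 0.155% to 0.209% of all counts in CC, 0.352% to 0.367% in TC, 0.347% to 0.362% in PC and 0.176% to 0.182% in RC. The table held 1 pseudogene row named after each chain, FTH1P3 with 33 counts in all 12 libraries and FTLP10 with 0.

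GPX4, the glutathione peroxidase that reduces phospholipid peroxides, lies on the plus strand at chr19:1103982-1106791. It was at 201, 238 and 184 CPM in CC and at 281, 284 and 294 CPM in TC. In PC it was at 253, 252.3 and 246 CPM and in RC at 178, 174 and 175 CPM. The 4 groups did not overlap, in the order RC, CC, PC and TC. GPX4 rose 1.38-fold in TC (log2 fold change 0.46 ± 0.08, edgeR adjusted p = 0.00022) and was 1.21-fold higher in PC (0.27 ± 0.08, edgeR adjusted p = 0.00843). In RC it was 1.18-fold lower (-0.24 ± 0.08, edgeR adjusted p = 0.031), but this call was lost without CC replicate 2 (-0.13, edgeR adjusted p = 0.0666) and without RC replicate 1, 2 or 3 (-0.24, -0.23 and -0.23, edgeR adjusted p = 0.0734, 0.0938 and 0.0865). It was also lost with every gene of a summed count of at least 2 (edgeR adjusted p = 0.0573) and with only RC and CC in the fit (edgeR adjusted p = 0.099).

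ACSL4 activates long polyunsaturated fatty acids for insertion into phospholipids, and lies on the minus strand at chrX:109624244-109733403. It was at 92.7, 109 and 94.6 CPM in CC and at 63.5, 53.8 and 54.7 CPM in TC. In PC it was at 42.3, 41.5 and 42.9 CPM and in RC at 103, 109 and 107 CPM. PC lay below TC and TC below CC without overlap, while RC overlapped CC. ACSL4 fell 1.73-fold in TC (log2 fold change -0.79 ± 0.08, edgeR adjusted p = 2.28e-06) and was 2.34-fold lower in PC (-1.23 ± 0.08, edgeR adjusted p = 4.64e-08). In RC the log2 fold change was 0.10 ± 0.08 (edgeR adjusted p = 0.317).

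CC replicate 2 held the highest and CC replicate 3 the lowest CC level of NQO1, GCLM, FTH1, FTL and GPX4, and the mitochondrial share was 2.02% in CC replicate 2 and 1.31% in CC replicate 3. The part of this difference between control libraries in the results was not tested beyond the values without each library given above.

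The comparison of PC with TC asked what changed in the first 2 days after the drugs were removed. None of the 10 genes was higher in PC in edgeR, with 0 at an unadjusted p under 0.05 and 0 in DESeq2, and 8 were lower, where 12.2% of all tested genes were higher and 12.5% were lower. Beyond 1.5-fold, HMOX1 alone of the 10 was lower, where 1.15% of all tested genes were lower and 2.33% higher. The median log2 fold change of the 10 genes was -0.35, beside 0.00 over all tested genes. Genes that had risen in TC and genes that had not both moved down: HMOX1 was 2.91-fold lower (-1.54 ± 0.22, edgeR adjusted p = 0.000315), GCLC 1.34-fold lower (-0.42 ± 0.05, edgeR adjusted p = 9.68e-05) and GCLM 1.29-fold lower (-0.37 ± 0.08, edgeR adjusted p = 0.00477). NQO1 was 1.497-fold lower (-0.58 ± 0.10, edgeR adjusted p = 0.00094), ACSL4 1.36-fold lower (-0.44 ± 0.08, edgeR adjusted p = 0.00176) and TXNRD1 1.24-fold lower (-0.31 ± 0.05, edgeR adjusted p = 0.00108). ACSL4, already below CC under MAPKi, thus went further from CC after removal, while HMOX1, GCLM and GCLC moved back towards CC.

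For FTH1, SRXN1 and GPX4 the call between PC and TC changed with the libraries in the fit. FTH1 was 1.25-fold lower (-0.32 ± 0.10, edgeR adjusted p = 0.0281), and the call was lost without TC replicate 1 (-0.24, edgeR adjusted p = 0.127), TC replicate 2 (-0.30, edgeR adjusted p = 0.0911), PC replicate 1 (-0.34, edgeR adjusted p = 0.0547) or PC replicate 3 (-0.26, edgeR adjusted p = 0.119), and with only PC and TC in the fit (-0.33, edgeR adjusted p = 0.0583). SRXN1 was 1.17-fold lower (-0.23 ± 0.06, edgeR adjusted p = 0.0166), and the call was lost without TC replicate 3 (-0.19, edgeR adjusted p = 0.0604) or PC replicate 2 (-0.21, edgeR adjusted p = 0.0687). GPX4 was not called (-0.19 ± 0.08, edgeR adjusted p = 0.102), but passed without CC replicate 2 (-0.19, edgeR adjusted p = 0.0119) or CC replicate 3 (-0.19, edgeR adjusted p = 0.0372) and with only PC and TC in the fit (edgeR adjusted p = 0.0131). In the full fit all groups share 1 estimate of the spread. FTL differed by 0.04 ± 0.10 (edgeR adjusted p = 0.826), and no difference from the level under the drugs was detected.

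The comparison of RC with PC covered the following days of regrowth. In edgeR, 3 genes were higher in RC (NQO1, TXNRD1 and ACSL4) and 5 were lower (HMOX1, GCLC, FTH1, FTL and GPX4), where 35.7% and 34.2% of all tested genes were called. Beyond 1.5-fold, NQO1 and ACSL4 were higher and HMOX1 and FTL lower, against 20.2% and 18.5%. ACSL4 was 2.52-fold higher (log2 fold change 1.33 ± 0.08, edgeR adjusted p = 2.16e-08), NQO1 2.03-fold higher (1.02 ± 0.10, edgeR adjusted p = 1.18e-06) and TXNRD1 1.49-fold higher (0.57 ± 0.05, edgeR adjusted p = 8.98e-07). HMOX1 was 2.70-fold lower (-1.43 ± 0.22, edgeR adjusted p = 8.72e-05) and FTL 2.14-fold lower (-1.10 ± 0.10, edgeR adjusted p = 6.97e-07). FTH1 was 1.61-fold lower (-0.69 ± 0.10, edgeR adjusted p = 4.07e-05), GPX4 1.43-fold lower (-0.51 ± 0.08, edgeR adjusted p = 8.91e-05) and GCLC 1.201-fold lower (-0.26 ± 0.05, edgeR adjusted p = 0.000431). GCLM (-0.14 ± 0.08, edgeR adjusted p = 0.142) and SRXN1 (-0.02 ± 0.06, edgeR adjusted p = 0.749) were not called.

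The pathway lists around these genes were read in the same fit. Of their 107 genes, 95 were tested. In TC 29 of them were higher and 40 lower than CC, in PC 21 were higher and 48 lower, and in RC 21 were higher and 28 lower. The background over all tested genes was 33.2% higher and 34.7% lower for TC, 33.2% higher and 35.9% lower for PC, and 18.2% higher and 19.1% lower for RC. The median log2 fold change of the tested pathway genes was -0.08 in TC, -0.25 in PC and -0.06 in RC, beside -0.02, -0.04 and 0.00 over all tested genes. In PC against TC 9 of the 95 were higher and 34 lower, beside 12.2% and 12.5% of all tested genes, and in RC against PC 49 were higher and 24 lower, beside 35.7% and 34.2%. Some of these counts changed when any of several libraries was left out. The higher genes in RC numbered 12 without RC replicate 1 and 13 without RC replicate 2. In PC against TC, the lower genes numbered 22, 21, 22 and 19 without TC replicate 1, TC replicate 2, PC replicate 2 and PC replicate 3, and the higher genes 5, 5 and 4 without TC replicate 1, TC replicate 2 and PC replicate 3.

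Counts by list in TC are to be read against the 33.2% of all tested genes that were higher and the 34.7% that were lower. Among NRF2 and its regulators (11 tested), 3 were higher and 2 lower in TC. NFE2L2 itself was at 209, 213 and 265 CPM in CC and 233, 234 and 244 CPM in TC, which overlapped (log2 fold change 0.05 ± 0.09, edgeR adjusted p = 0.654, or 0.17 and 0.0443 without CC replicate 3). In PC it was lower by little (-0.24 ± 0.09, edgeR adjusted p = 0.0344), a call lost without CC replicate 3 (-0.11, edgeR adjusted p = 0.174), PC replicate 1 (-0.20, edgeR adjusted p = 0.111), PC replicate 2 (-0.23, edgeR adjusted p = 0.081), TC replicate 1 (-0.22, edgeR adjusted p = 0.0536) or RC replicate 2 (-0.23, edgeR adjusted p = 0.0525). KEAP1 rose from 59.7, 60.3 and 57.7 CPM in CC to 111, 108 and 118 CPM in TC (0.92 ± 0.05, edgeR adjusted p = 1.6e-08), and was 93.7 to 94.4 CPM in PC and 65.6 to 69.0 CPM in RC. BACH1 was not called in TC (-0.16 ± 0.08, edgeR adjusted p = 0.096) except without CC replicate 2 (-0.20, edgeR adjusted p = 0.0425). NFE2L1, a relative of NRF2 that drives proteasome genes, rose (0.76 ± 0.09, edgeR adjusted p = 6.75e-06), and the small MAF gene MAFF fell from 98.8, 91.8 and 167 CPM to 30.8, 28.3 and 30.9 CPM (-1.99 ± 0.19, edgeR adjusted p = 1.2e-06). The call of SQSTM1, the autophagy adaptor that can trap KEAP1, rested on CC replicate 2, with 128 CPM against 8.14 and 14.3 CPM in the other CC libraries. Its log2 fold change in TC was -2.03 and became 0.12 without that library (edgeR adjusted p = 0.652). The call was also lost without any one of the TC libraries (edgeR adjusted p = 0.0692, 0.066 and 0.0758). A second row for a numbered copy of SQSTM1 held 13028 counts over the 12 libraries, more than the 10374 of the row tested. That copy held 1157, 1009 and 810 counts in CC and 1445, 1119 and 1560 in TC. Of the 107 pathway genes, 6 had a numbered copy, and 4 of these copies held counts. For HMOX2 the copy held 3701 counts against 13 in the row of that name, and for SESN2 609 against 1. Both genes were therefore left untested although their copies held counts. None of the 10 genes had such a copy.

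Imported cystine feeds glutathione synthesis with cysteine. SLC7A11, the cystine transporter, was at 272, 147 and 321 CPM in CC and fell to 28.0, 44.4 and 88.3 CPM in TC (log2 fold change -2.20 ± 0.39, edgeR adjusted p = 0.000318). In PC it was at 47.7 to 57.1 CPM (-2.21 ± 0.39, edgeR adjusted p = 0.000295) and in RC at 89.7 to 171 CPM, overlapping CC (-0.93 ± 0.38, edgeR adjusted p = 0.0714, or -1.2 and 0.0263 without CC replicate 2, and 0.0382 and 0.0264 without TC replicate 1 and 3). Of the 21 tested genes of cystine uptake and glutathione, 7 were higher and 10 lower in TC, where 33.2% and 34.7% of all tested genes were called. CHAC1, which degrades glutathione, fell from between 14.6 and 73.5 CPM to between 0.839 and 0.946 CPM (-5.47 ± 0.59, edgeR adjusted p = 4.74e-06, or -4.65 without CC replicate 3), and the microsomal transferase MGST1 fell (-2.57 ± 0.13, edgeR adjusted p = 7.72e-09). GGT1, which cleaves extracellular glutathione, rose from between 0.169 and 0.419 CPM to between 5.10 and 7.76 CPM (4.54 ± 0.33, edgeR adjusted p = 1.48e-07), and GPX8, a peroxidase of the endoplasmic reticulum, rose (1.01 ± 0.07, edgeR adjusted p = 9.43e-08).

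**Figure D3:**
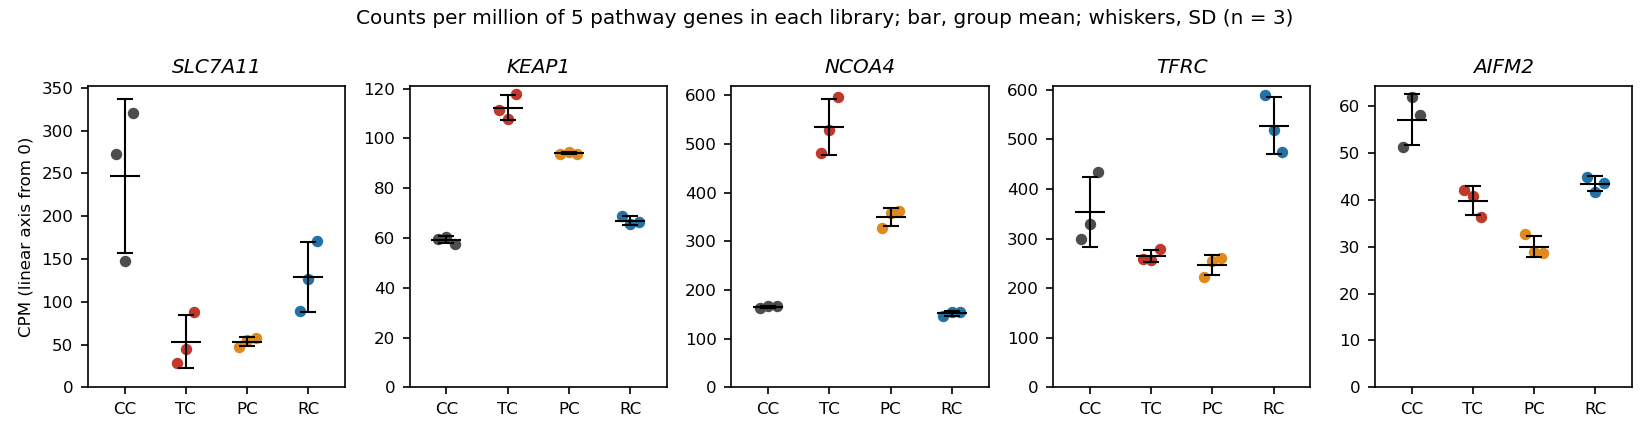
CPM (vertical axes, linear from 0) of SLC7A11, KEAP1, NCOA4, TFRC and AIFM2 in the 3 libraries of CC, TC, PC and RC (points), with the group mean (bar) and SD (whiskers, n = 3). KEAP1 and NCOA4 are above CC in every TC and PC library, SLC7A11 and AIFM2 are below CC in every TC and PC library, and TFRC is above CC in every RC library.

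Iron handling around ferritin and HMOX1 held 13 tested genes, of which 2 were higher and 7 lower in TC, where 33.2% and 34.7% of all tested genes were called. NCOA4, the receptor that delivers ferritin to autophagosomes, rose with the ferritin chains from 162, 166 and 167 CPM in CC to 482, 529 and 597 CPM in TC (log2 fold change 1.70 ± 0.08, edgeR adjusted p = 2.62e-09) and was 328 to 363 CPM in PC (1.08 ± 0.08, edgeR adjusted p = 9.78e-08). In RC it was at 147 to 156 CPM, just below CC, and was not called (-0.12 ± 0.08, edgeR adjusted p = 0.25). TFRC, the transferrin receptor, moved the other way. It fell from 300.02, 329 and 434 CPM in CC to 259, 257 and 278 CPM in TC (-0.42 ± 0.13, edgeR adjusted p = 0.0102) and stood at 475 to 589 CPM in RC (0.57 ± 0.13, edgeR adjusted p = 0.00388). Transferrin itself (TF) fell (-1.58 ± 0.13, edgeR adjusted p = 4.36e-07) and was lower still in PC (-3.62 ± 0.15), and the endosomal iron reductase STEAP3 fell (-0.92 ± 0.21, edgeR adjusted p = 0.00173). FECH, which inserts iron to form haem, rose (0.44 ± 0.08, edgeR adjusted p = 0.000348).

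Among genes of thioredoxin, peroxiredoxins and superoxide (16 tested), 4 were higher and 7 lower in TC, beside 33.2% and 34.7% of all tested genes. TXN, the substrate of TXNRD1, fell in TC (log2 fold change -1.15 ± 0.12, edgeR adjusted p = 2.74e-06) while TXNIP, which binds and inhibits thioredoxin, rose from 638, 693 and 379 CPM to 1782, 1566 and 1379 CPM (1.47 ± 0.20, edgeR adjusted p = 3.98e-05). In RC both were on the opposite side of CC, with TXN higher (0.65 ± 0.12, edgeR adjusted p = 0.00108) and TXNIP lower (-1.06 ± 0.20, edgeR adjusted p = 0.0017), beside the higher TXNRD1. SOD3, the extracellular superoxide dismutase, fell most of this list, from between 509 and 547 CPM to between 20.2 and 22.5 CPM (-4.66 ± 0.10, edgeR adjusted p = 2.23e-11). PRDX1 rose (0.39 ± 0.12, edgeR adjusted p = 0.0113). Of 6 genes listed around NADPH, not all of which make it themselves, 2 rose, among them TALDO1 at 0.72 ± 0.10 (edgeR adjusted p = 5.79e-05). In the same list 3 fell, with IDH1 at -1.71 ± 0.11 (edgeR adjusted p = 3.34e-08) and TKT at -1.62 ± 0.08 (edgeR adjusted p = 6.68e-09).

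The list of lipid peroxidation and its suppressors (15 tested) had 4 genes higher and 10 lower in TC, beside 33.2% and 34.7% of all tested genes. AIFM2, which protects membranes from peroxidation without glutathione, was at 51.2, 61.9 and 58.0 CPM in CC and fell to 42.1, 40.9 and 36.2 CPM in TC (log2 fold change -0.52 ± 0.09, edgeR adjusted p = 0.000173). It was also lower than CC in PC at 28.5 to 32.6 CPM (-0.93 ± 0.09, edgeR adjusted p = 1.28e-06) and in RC at 41.7 to 44.9 CPM (-0.40 ± 0.09, edgeR adjusted p = 0.00382). ACSL3, which activates monounsaturated fatty acids, fell beside ACSL4 (-1.55 ± 0.06, edgeR adjusted p = 6.03e-10), and the lipoxygenase ALOX15B fell (-2.24 ± 0.33, edgeR adjusted p = 6.57e-05). LPCAT3, which inserts the fatty acids activated by ACSL4, rose (0.61 ± 0.09, edgeR adjusted p = 0.000102), as did the lipoxygenase ALOX12 (1.11 ± 0.30, edgeR adjusted p = 0.00522). Among other NRF2-linked enzymes (13 tested), 7 were higher and 1 lower in TC, with ABCC2, an exporter of conjugates, at 1.07 ± 0.09 (edgeR adjusted p = 3.52e-07), NQO2 at 1.02 ± 0.07 (edgeR adjusted p = 1.27e-07) and AKR1C3 at -1.18 ± 0.24 (edgeR adjusted p = 0.000989). NQO2, the relative of NQO1, was at 23.3 to 28.0 CPM in CC and 49.2 to 54.3 CPM in TC.

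**Figure D4:**
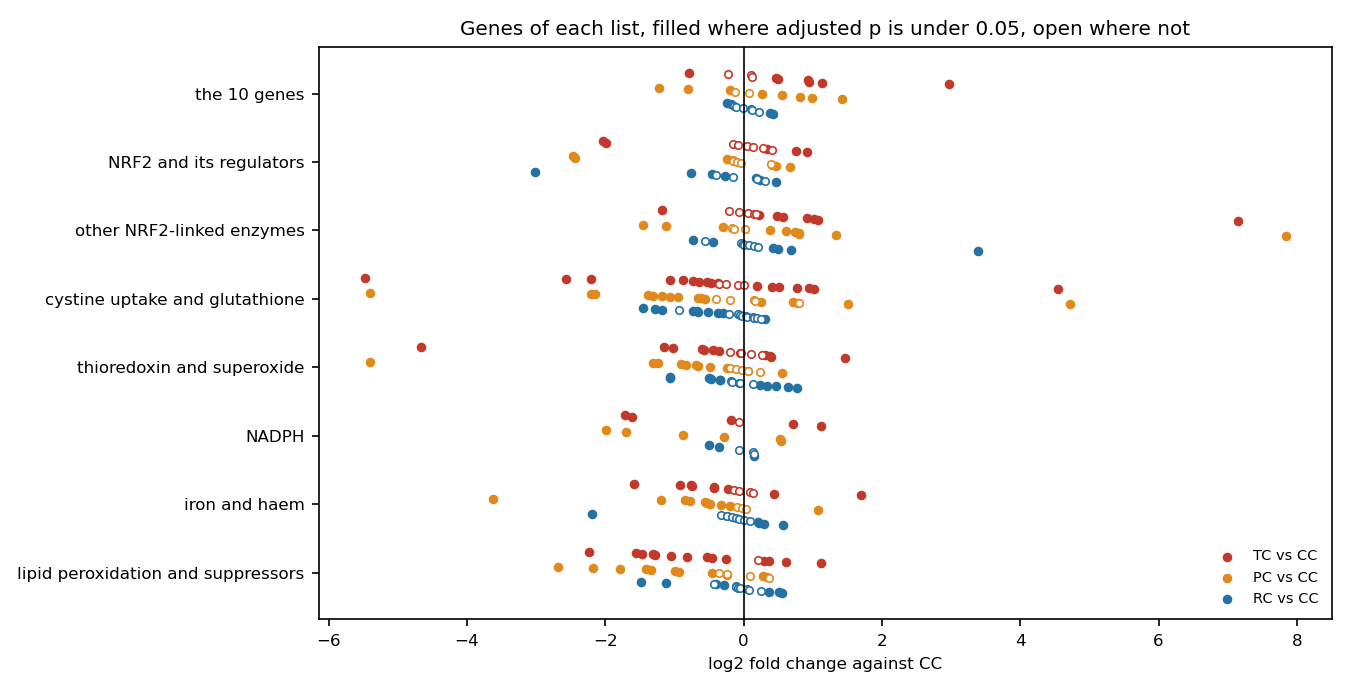
Log2 fold change against CC (horizontal axis) of the 10 genes and of the tested genes of 7 pathway lists (rows) in TC, PC and RC, each point a gene, filled where the edgeR adjusted p was under 0.05 and open where it was not. In TC the 10 genes have a median of 0.48 and the pathway genes a median of -0.08 and in RC of -0.06.

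The genes most like the 3 with the widest range were sought among 11723 genes with a mean count of at least 100, by the root mean square difference of mean-centred log2 CPM over the 12 libraries. For HMOX1 they were GAS6 (0.29), NPY6R (0.33) and ARRDC4 (0.39). GAS6, a secreted ligand of the AXL receptor family, had group means of 1.78, 11.6, 5.37 and 1.49 CPM in CC, TC, PC and RC. For ACSL4 they were PDHX (0.07), NMD3 (0.08) and KCTD3 (0.08), and PDHX, a subunit of the pyruvate dehydrogenase complex, had group means of 90.6, 54.9, 43.6 and 106 CPM. For FTH1 they were ID4 (0.08), RETREG2 (0.10) and NAPA (0.11), with ID4, an inhibitor of DNA binding by helix-loop-helix factors, at 32.5, 77.4, 59.7 and 34.8 CPM. FTL was not among the 3 genes closest to FTH1.

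All values are shares of the RNA of a culture, so fewer cells of a kind and less RNA per cell cannot be told apart.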

How the data were processed

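The authors trimmed paired reads with fastp 0.20.1, aligned them with HISAT2 2.2.1 to GRCh38.p13 and, using htseq-count (HTSeq 0.13.5), counted exonic reads of the NCBI annotation, per the labels and the study's methods. The deposited table holds raw counts per gene, with no normalisation, for the 12 libraries. Strand settings and the handling of reads with several alignments were not given in the sources used here.

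Genes were kept if their scaled count averaged 10 or more. All 12 libraries entered 1 quasi-likelihood fit by group, with TMM factors, in edgeR 4.0.16 (R 4.3.3, 8 residual degrees of freedom). Calls used a two-sided Benjamini-Hochberg adjusted p under 0.05 over all 15916 genes, and glmTreat for changes beyond 1.5-fold. Values after ± are SE for fold changes, derived from the F statistic, and SD over 3 libraries for levels. DESeq2 1.42.0, other scalings and filters and the replicate block were alternatives.

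The 10 genes and the pathway lists were chosen with earlier results of these data known. Named pathway genes are 8 that were always shown (NFE2L2, KEAP1, BACH1, SLC7A11, TFRC, NCOA4, AIFM2 and TXNIP) and, in each list, the 2 largest rises and 2 largest falls called in TC with a mean of at least 1 CPM, except 1 gene that is not reported here. No library duplicated another. Coordinates and lengths are from GENCODE v44 on hg38, the same primary assembly. The test was checked on simulated data. Precision is limited by 3 libraries a group.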

Additional observations from a re-analysis of the deposited data

Results flagged for a closer look

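The change from CC differed between TC and PC, by the edgeR test of that difference, for 8 of the 10 genes. The log2 differences, PC minus TC, were -1.54 for HMOX1, -0.58 for NQO1, -0.44 for ACSL4, -0.42 for GCLC, -0.37 for GCLM, -0.32 for FTH1, -0.31 for TXNRD1 and -0.23 for SRXN1. The calls of FTH1 and SRXN1 between PC and TC were lost in some fits without 1 library. The change from CC also differed between PC and RC for 8 genes, where 35.7% of all tested genes were higher and 34.2% lower in RC. The log2 differences, RC minus PC, were 1.33 for ACSL4, 1.02 for NQO1, 0.57 for TXNRD1, -0.26 for GCLC, -0.51 for GPX4, -0.69 for FTH1, -1.10 for FTL and -1.43 for HMOX1. CC and TC shared the harvest day and PC and RC did not, so the day and the time without drug cannot be told apart.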

How the results depend on the processing

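Under the alternatives, 969 member values kept their direction and their side of the threshold, 59 lost and 12 gained a call, and 10 reversed. The reversals were of values not called: HMOX1 in RC against CC became 0.000451 with DESeq2 size factors, 0.0204 with library totals, 0.00219 with a summed count of at least 2, 0.000474 in both DESeq2 tests, and ran from -0.0531 to 0.0427 over the fits without 1 library, above 0 without CC replicate 1, RC replicate 1 or RC replicate 2. FTL in RC ran from -0.228 to 0.0155 over these fits, above 0 without CC replicate 2, and SRXN1 in RC against PC became 0.00248 with library totals. DESeq2 with the study's log2 threshold and glmTreat, which ask for a larger change, gave fewer calls. Higher members in PC went from 5 to 3 in both and in RC from 2 to 0. Lower members went to 0 in TC and 1 in PC with DESeq2, to 0 in RC, 1 in PC against TC and 2 in RC against PC in both. Higher pathway genes became 10 and 13 in TC, 8 and 8 in PC, 0 and 0 in RC, 0 and 0 in PC against TC, and 22 and 28 in RC against PC. Lower pathway genes became 17 and 20, 26 and 30, 2 and 3, 2 and 3, and 11 and 12. Library totals gave 2 lower members in TC. A summed count of at least 2 gave 1 lower member in RC and 5 higher pathway genes in PC against TC. With only the groups compared, RC had 0 lower members and 12 higher pathway genes. Leaving out a library moved lower members to between 1 and 2 in TC and between 0 and 4 in RC, higher pathway genes to between 12 and 26 in RC and between 4 and 10 in PC against TC, and lower pathway genes to between 19 and 41 there. The causes were not tested. Whether replicate numbers pair the libraries was not settled. Of 18 pairs with the same number, the correlation of deviations ran from -0.047 to 0.202 and was over 0.1 in 2. Both of these were between TC and PC, at 0.202 for replicate 1 and 0.181 for replicate 3. Of the 12 libraries, 9 correlated best with their own number. With the replicate block, TC had 6 higher and 1 lower members, PC had 5 higher and 3 lower, RC had 2 of each, and no count of members changed.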

Other observations

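A stricter form of the antioxidant response element, TGACTCAGC, which contains the AP-1 site TGACTCA, was searched in the same RefSeq promoter windows after the values had been seen. It was in 0.561% of the 35116 windows, in 0.716% of the 11587 tested genes with a window and in none of the 8 entered genes of the 10, but in 5 of the 82 entered pathway genes: ME1, AIFM2, SLC3A2, GSTP1 and PIR. ME1 is the cytosolic malic enzyme, SLC3A2 the partner chain of SLC7A11 and GSTP1 a glutathione transferase. The matched letters of the 4 genes with a match before the start are in capitals in sequences that run 5′ to 3′ on the strand of the gene, shown so that the letters around each match can be compared.
ME1, chr6:83431150-83431218, minus strand: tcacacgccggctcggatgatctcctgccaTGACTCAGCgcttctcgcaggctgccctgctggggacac
AIFM2, chr10:70132826-70132877, minus strand: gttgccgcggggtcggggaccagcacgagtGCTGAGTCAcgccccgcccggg
SLC3A2, chr11:62881632-62881698, plus strand: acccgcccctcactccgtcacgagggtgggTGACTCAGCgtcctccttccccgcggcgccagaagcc
GSTP1, chr11:67583716-67583784, plus strand: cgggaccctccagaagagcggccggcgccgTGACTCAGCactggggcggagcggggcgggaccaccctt
The 5 genes were lower in PC than in CC, by log2 fold changes of -1.18 (SLC3A2), -1.12 (PIR), -0.93 (AIFM2), -0.88 (ME1) and -0.56 (GSTP1), and in TC AIFM2 (-0.52) and GSTP1 (-0.37) were called. Since these values were known when the letters were chosen, their shared direction is a description only. The shorter TGACTCA was also in windows of OSGIN1 and BACH1. OSGIN1 was higher in TC (0.92, edgeR adjusted p = 0.000254) and in PC (0.39, edgeR adjusted p = 0.0477). Its PC call was lost without CC replicate 3 (0.2, edgeR adjusted p = 0.123) and in several other fits without 1 library. BACH1 was not called in PC (-0.15), except without CC replicate 2 (-0.2, edgeR adjusted p = 0.0444). Of all 83 tested genes with the longer TGACTCAGC in a window, 32.5% were lower and 39.8% higher in PC, beside 37.4% and 34.3% of the 11587 tested genes with any window.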
